A study of Homo sapiens with 4 samples.

Results

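The regions described here are those where the HNF4A library stood at or below its IgG library at both glucose levels. HNF4A, a nuclear receptor, regulates many genes of hepatocytes, and the study asked which genes it binds in HCCLM3 cells, an established human hepatocellular carcinoma line, when glucose differs. Chromatin immunoprecipitation followed by sequencing recovers the DNA held by an antibody, and nonspecific IgG gives the background. The 4 groups, of 1 library each, were HNF4A at high glucose, IgG at high glucose, HNF4A at low glucose and IgG at low glucose. The labels give no glucose concentration. They state the same high glucose culture medium for all 4 libraries, and they describe a lentiviral overexpression line without naming the cDNA or the libraries made from it. ChIP reads give no expression, so the cell line was not checked against marker genes.

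A region was a member if its log2 ratio of scaled HNF4A reads over scaled IgG reads was at or below 0 in both of the authors' comparisons with IgG. Scaled reads are reads divided by the relative size of their library. The rule found 216 of the 5326 regions, or 4.06%. It was met at high glucose alone by 628 further regions and at low glucose alone by 237, and 4245 regions stood above IgG at both levels. Counting the members too, 844 regions were at or below IgG at high glucose (15.8%) and 453 were so at low glucose (8.51%). Since the ratios over IgG chose the members, they are given below as a description and without a test. With 1 library per group nothing has a replicate check, and the ranges after the ratios are exact 95% counting intervals of the reads of 2 libraries. They leave out every other source of error, and copies made by PCR are not independent molecules.

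As background, HNF4A binds DNA as a homodimer, at direct repeats of a nuclear receptor half-site or at a related element with a CAAAG core, near many genes of hepatocytes. An IgG library has no target of its own, and its reads follow how DNA breaks, amplifies and aligns. Satellite arrays beside centromeres and ribosomal DNA exist in many copies in a genome, while an assembly holds only some of the copies. Reads of the missing copies can then gather on those that the assembly has.

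No genome of the build used by the authors, hg19, was available, so the sequence of the regions themselves is not shown. To show the promoter DNA of genes that lay closest to members, 3 RefSeq windows of 250 bases ending just before the annotated gene start are given from GRCh38.p14. They are NPAS4, the most read member of the neuron gene list, PRKAG1, the single member of the AMPK and mTOR list, and KRT8. KRT8 is a keratin gene of simple epithelia including hepatocytes. Capitals mark CAAAG or its reverse complement CTTTG. Whether a window overlaps its hg19 region was not determined, so a motif in a window is not placed in a member.
NPAS4 (chr11:66420754-66421003, plus strand): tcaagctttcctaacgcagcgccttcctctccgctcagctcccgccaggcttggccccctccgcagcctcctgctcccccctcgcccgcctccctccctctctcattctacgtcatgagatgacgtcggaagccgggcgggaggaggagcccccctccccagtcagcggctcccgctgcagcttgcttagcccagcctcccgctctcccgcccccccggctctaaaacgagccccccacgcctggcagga
PRKAG1 (chr12:49018777-49019026, minus strand): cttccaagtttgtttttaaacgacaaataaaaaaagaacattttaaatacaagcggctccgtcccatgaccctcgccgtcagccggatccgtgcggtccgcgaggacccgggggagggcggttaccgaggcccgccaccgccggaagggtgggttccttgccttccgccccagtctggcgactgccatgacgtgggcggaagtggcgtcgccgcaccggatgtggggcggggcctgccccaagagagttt
KRT8 (chr12:52926470-52926719, minus strand): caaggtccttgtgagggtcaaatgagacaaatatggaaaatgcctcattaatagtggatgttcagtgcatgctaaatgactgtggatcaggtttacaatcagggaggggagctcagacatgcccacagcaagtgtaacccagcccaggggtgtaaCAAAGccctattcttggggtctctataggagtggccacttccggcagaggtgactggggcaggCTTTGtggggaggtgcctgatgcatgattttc

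The KRT8 window held CAAAG at 2 places over both strands, and the other 2 windows held none. The windows of FANCG and CHRNB2, also searched but not shown, held none either. Of the 35116 RefSeq promoter windows, cut to the same length, 42.07% held CAAAG on either strand. The longer CAAAGTCCA was in 0.3246% of them and a direct repeat of AGGTCA with any 1 base between in 0.01709%, both strands searched, and neither was in the 3 windows. The longer motif contains the shorter one. GC content was 69.6% for NPAS4, 62% for PRKAG1 and 50.4% for KRT8, against a median of 58% over all windows. Only 118 members (54.63%) had a closest gene with a window, under the 80% needed, so no share of motifs or GC content is given over the members.

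The members differed from the other regions more in IgG than in HNF4A. Median reads at high glucose were 37 for HNF4A and 41 for IgG in members, against 50 and 26 over all regions. At low glucose they were 23.5 and 30 in members and 35 and 18 over all regions. Per kb of region, and averaged over both glucose levels, the members had a median of 44 scaled IgG reads, against 21.3 over all regions. HNF4A stood at 32.3 per kb in members and 37.6 over all regions. Of the members, 134 were in the top 10% of all regions by IgG per kb (25.14% of those regions), and 57 were in the top 10% by HNF4A per kb. Another 74 were in the lowest 10% by HNF4A per kb. By HNF4A per kb, the members therefore held both very dense and very thin regions. By IgG per kb, 0 members were in the lowest 10%, and the lowest member stood at 18.5. The rule used IgG and HNF4A reads, so these densities describe what it chose.

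**Figure D1:**
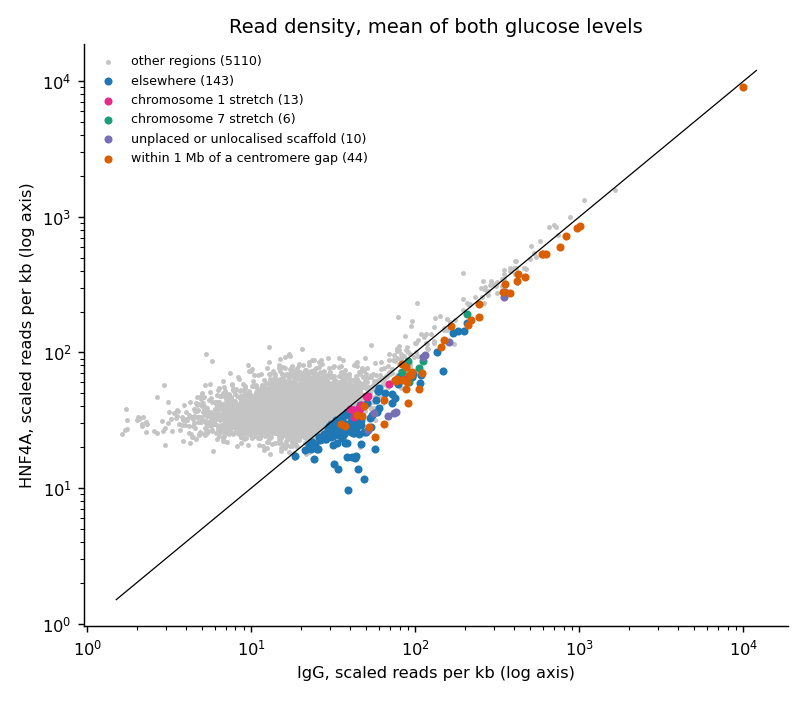
Scaled HNF4A reads per kb against scaled IgG reads per kb for each of the 5326 regions, each the mean of both glucose levels, on log axes. Grey points are the 5110 other regions, coloured points the 216 members by place, and the line marks equal density. Members near centromere gaps reach 9898 IgG reads per kb, while most members elsewhere lie below 50.

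The median log2 ratio over IgG of members was -0.36 (high glucose) and -0.29 (low glucose), beside 0.79 and 0.94 over all 5326 regions. The lowest ratio of a member was -3.05 at high and -2.73 at low glucose. At high glucose, 74 members lay between -0.25 and 0 and 68 between -0.5 and -0.25. At low glucose, 94 lay between -0.25 and 0 and 66 between -0.5 and -0.25. Most members were thus within a small step of the threshold in each table. Here and below, a percent of all regions after a count of members is the share of the 5326 regions that met the same condition. At least a 2-fold deficit was seen at high glucose in 19 members (8.8%, against 1.05% of all regions). At low glucose it was seen in 21 members (9.72%, against 0.488% of all regions). Most of these were thinly read. The 16 members between -2 and -1 at high glucose had a median level of 13.5 scaled reads and a highest of 88, and the 3 members below -2 had a median of 8.8.

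**Figure D2:**
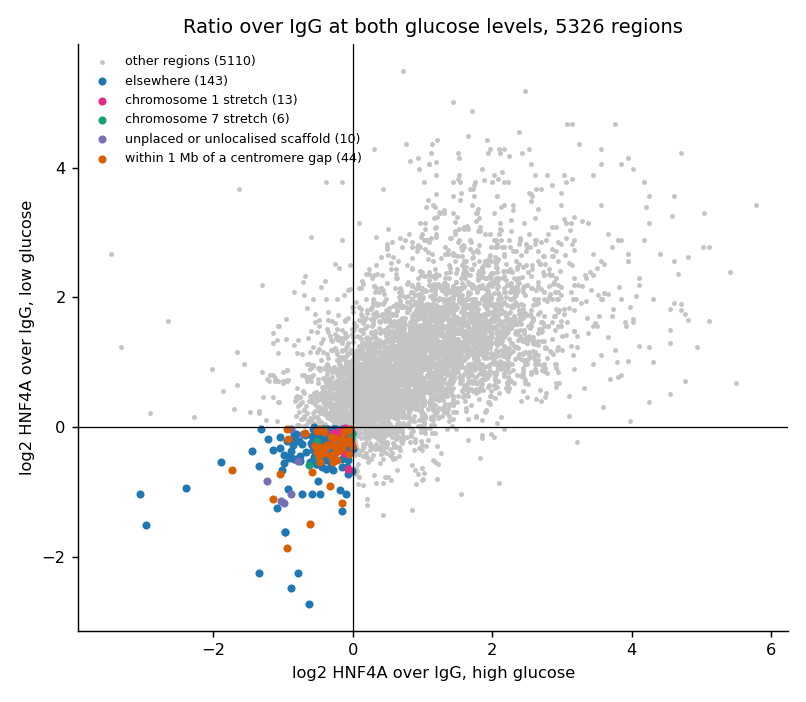
Log2 ratio of HNF4A over IgG at high glucose (x axis) against low glucose (y axis) for the 5326 regions, with 1 point per region. Members, coloured by place, fill the lower left quadrant by the rule, and the 5110 other regions are grey. The lowest members reach -3.05 on the x axis and -2.73 on the y axis.

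The counting interval lay below 0 in 48 members at high glucose (22.2%, against 2.07% of all regions). It did so in 26 at low glucose (12%, against 0.713%). At either level it did so in 63 (29.2%, against 2.57%) and at both in 11 (5.09%, against 0.207%). The rule used these contrasts, and nothing is read from the shares. In the authors' deposited tables of HNF4A over IgG, 0 members passed an unadjusted p of 0.05 in either direction at either glucose level. Over all regions, the authors' deposited table held 4.96% higher and 0.0188% lower at high glucose, and 3.04% higher and 0% lower at low glucose. The lowest p of a member in the authors' deposited table was 0.0763 at high glucose, for XKR7, and 0.118 at low glucose, for EMBP1. By FDR, the authors' deposited table called 0 members and 0% of all regions in each comparison.

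Just inside the threshold lay regions closest to MIR3190 and LINC00293, at -0.00035 and -0.0017 at high glucose, LINC00854, at -0.0018 at low glucose, and NCAPG2, at -0.0053 at high glucose. Just outside lay CDK4 and a region of a chromosome 9 scaffold with no gene listed, at 0.0014 and 0.0058 at high glucose. CCDC64 and CAV2 were just outside at low glucose, at 0.0048 and 0.0056. A single read moves most of these across the threshold.

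The 11 members with the interval below 0 at both glucose levels ranged from a few reads to the most read region of the series. CHEK2P2, a pseudogene of the checkpoint kinase gene CHEK2, was listed for a region on chromosome 15 (20546417 to 20546931), where high glucose gave 19 HNF4A and 33 IgG reads, and low glucose 7 and 25. Its log2 ratios were -0.94 (-1.84 to -0.09) and -1.86 (-3.32 to -0.61). ARL2BP, which encodes a partner of the small GTPase ARL2, had 17 HNF4A and 30 IgG reads at high glucose and 6 and 18 at low glucose. In both regions each HNF4A library was below its own IgG library, and the low glucose HNF4A counts were the lowest of the 4.

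XKR7, a gene of the XK-related membrane proteins, had the lowest mean ratio among members at or above the median level of all regions. Its region on chromosome 20 (30556069 to 30556867) held 64 HNF4A and 147 IgG reads at high glucose and 58 and 86 at low glucose, ratios of -1.35 (-1.79 to -0.91) and -0.59 (-1.10 to -0.10). The HNF4A counts were nearly alike at both glucose levels while IgG was lower at low glucose. SCRT1, which encodes a neural zinc finger repressor, lay on chromosome 8 (145559905 to 145560877), where high glucose gave 76 HNF4A and 136 IgG reads, and low glucose 47 and 68. Its ratios were -0.99 (-1.41 to -0.57) and -0.56 (-1.13 to -0.0016), so the second interval only just missed 0.

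ANKRD20A12P, a pseudogene of a multicopy ankyrin repeat family, had 48 HNF4A reads in each HNF4A library against 89 and 78 IgG reads at high and low glucose. Its region lay on chromosome 1 (142537322 to 142538946), with ratios of -1.04 (-1.57 to -0.51) and -0.73 (-1.28 to -0.19). TFEC, a basic helix-loop-helix factor of the MITF family, and the long noncoding gene LINC01393 both lay on the long arm of chromosome 7. TFEC (115635425 to 115637443) had 142 HNF4A and 197 IgG reads at high glucose and 113 and 167 at low glucose. LINC01393 (114851986 to 114854148) had 174 and 221 at high glucose and 171 and 231 at low glucose. At these 3 genes both IgG libraries were above both HNF4A libraries.

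ACTR3BP2, a pseudogene of the actin-related protein gene ACTR3B, had 594 HNF4A and 726 IgG reads at high glucose and 542 and 655 at low glucose on chromosome 2 (92289806 to 92291298). Its ratios were -0.44 (-0.59 to -0.28) and -0.30 (-0.47 to -0.13). A region of a chromosome 9 scaffold with no gene listed (9_gl000199_random, 34289 to 35151) had 257 and 298 reads at high glucose and 246 and 299 at low glucose. ZNF733P, a zinc finger pseudogene, had 2137 and 2310 reads at high glucose and 2024 and 2234 at low glucose on chromosome 7 (61968658 to 61971431). Its ratios were small but precise, at -0.26 (-0.34 to -0.17) and -0.17 (-0.26 to -0.08).

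The region closest to EMBP1, a pseudogene of the cell adhesion gene EMB, held the most reads of all 5326 regions. It lay on chromosome 1 (121483763 to 121485550), where high glucose gave 18380 HNF4A and 17159 IgG reads, and low glucose 15840 and 17783. Its ratios were -0.05 (-0.08 to -0.02) and -0.19 (-0.22 to -0.16), where the first is negative after scaling by library size although the raw HNF4A count was the higher. It alone held 45.4% to 50.9% of the reads of all members in each library. Over the 216 members together, HNF4A had 36794 reads and IgG 37795 at high glucose, and 31131 and 35595 at low glucose. The ratio of these sums was -0.18 at high and -0.22 at low glucose. Without the EMBP1 region it was -0.31 and -0.25.

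**Figure D3:**
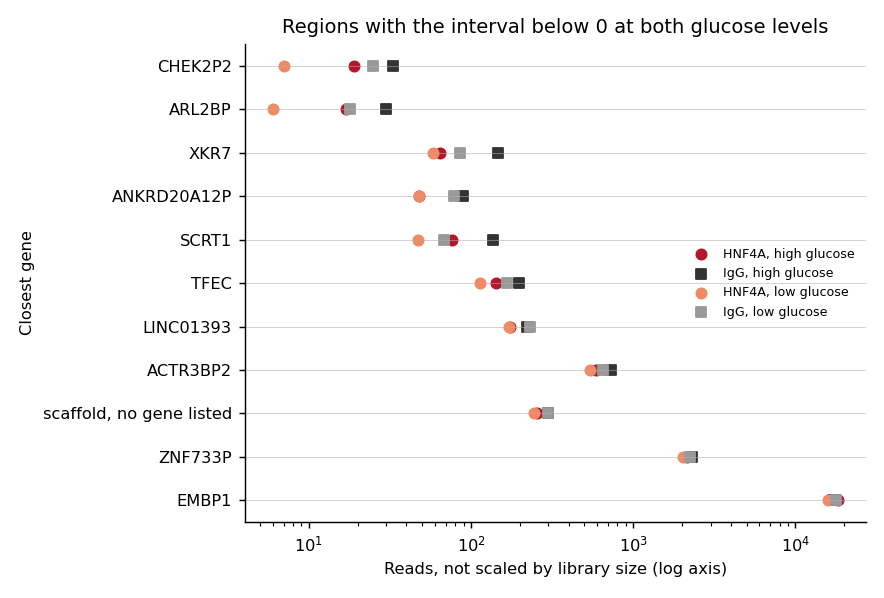
Reads in each of the 4 libraries, not scaled by library size and on a log axis, for the 11 members whose counting interval lay below 0 at both glucose levels. Circles are HNF4A and squares IgG, and each row is 1 region named by its closest gene. The rows run from CHEK2P2, with 7 to 33 reads, to EMBP1, with 15840 to 18380 reads.

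The other members with the highest levels were also mostly near centromere gaps, on a scaffold or in 1 stretch of chromosome 7 described further on. CAPZA2, the gene of an actin capping protein subunit, was listed for the longest member, of 6454 bp, where HNF4A had 1412 and IgG 1302 reads at high glucose and 1189 and 1329 at low glucose. RNA5-8S5, a 5.8S ribosomal RNA gene, lay on the unplaced scaffold Un_gl000220 (143601 to 145589). It had 545 HNF4A and 805 IgG reads at high glucose and 524 and 552 at low glucose, ratios of -0.71 (-0.87 to -0.55) and -0.10 (-0.28 to 0.07). Its IgG count at high glucose stood apart from the other 3. LINC00293 and LINC00854, both long noncoding genes, and LOC441666 were also among the 10 highest levels with 310 to 439 scaled reads. Another ACTR3BP2 region was among them too, at 706.

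Where the members lay was not used by the rule. Centromere gaps are stretches of hg19 with no sequence, and their positions were entered from general knowledge of that assembly, since no file held them. No region lay inside such a gap. Within 1 Mb of a gap lay 44 members of 189 regions, and on unplaced or unlocalised scaffolds lay 10 members of 43. Together these were 25% of the members and 4.36% of all regions. They were 6.69% of the regions not above IgG at high glucose alone, 29.1% of those not above it at low glucose alone and 1.58% of those above it at both. Near a gap or on a scaffold 23.3% of the regions were members, against 3.18% of the 5094 regions away from both. Regions are not replicates, neighbouring ones may share repeats, and these shares carry no test.

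Read density of the members differed by place. Members near a gap had a median of 107 scaled IgG reads and 79.6 scaled HNF4A reads per kb. The 145 other regions near a gap had 61.3 and 71.5 per kb. Members elsewhere had 37.1 IgG and 27.9 HNF4A reads per kb, against 19.9 and 37.1 in the other regions elsewhere. Members near a gap were thus denser in both antibodies than regions elsewhere, as were the other regions near a gap. Members elsewhere were below the other regions there in HNF4A and above them in IgG. The rule used these reads, so differences between members and other regions of the same place describe what it chose. The mapping of reads to repeated sequence was not tested.

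A pair of stretches, chosen after their values were seen, held further members. On chromosome 7, from 114098766 to 116505281, there were 6 members of 37 regions, closest to genes that included TFEC, LINC01393, TES and CAPZA2. TES encodes the focal adhesion protein testin, and its region had 301 HNF4A and 274 IgG reads at high glucose and 287 and 303 at low glucose. The 31 other regions of this stretch were also densely read by IgG, with a median of 93.3 per kb against 98.5 in its members. On chromosome 1, from 150038667 to 156890735, there were 13 members of 143 regions, with a median of 45.6 IgG reads per kb against 38.8 in the other regions there. The longest of them were HCN3, a pacemaker channel gene, at 3564 bp, and IL6R, the interleukin 6 receptor gene, at 3302 bp. Whether the cells carry extra copies of these stretches was not tested.

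**Figure D4:**
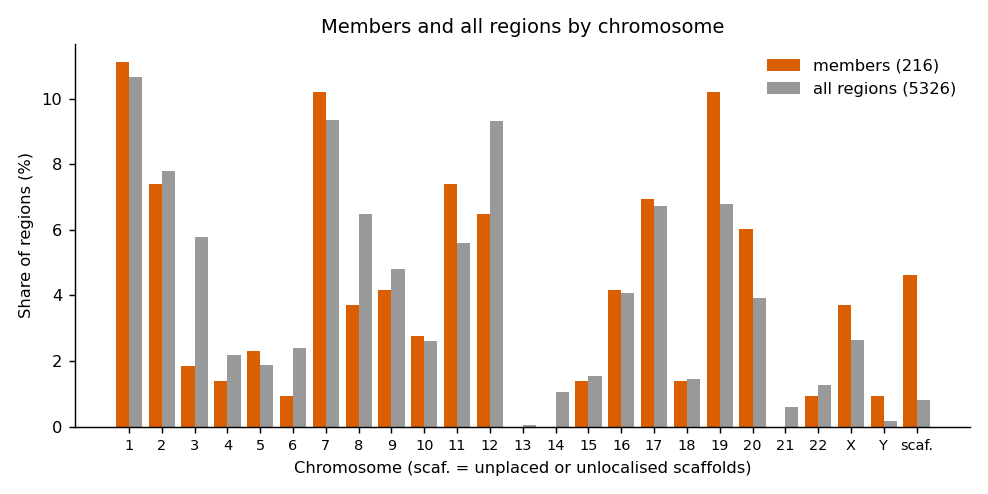
Share of the 216 members and of all 5326 regions on each chromosome and on unplaced or unlocalised scaffolds, in percent, with bars starting at 0. Scaffolds hold 4.63% of the members and 0.807% of all regions, and chromosome 3 holds 1.85% and 5.78%.

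By chromosome, the members followed all regions in part. Chromosome 1 held 11.1% of the members (exact binomial 95% interval 7.25% to 16.1%) and 10.6% of all regions, and chromosome 7 held 10.2% and 9.35%. Chromosome 19 held 10.2% of the members (6.49% to 15.0%) and 6.78% of all regions. Chromosome 3 held 1.85% (0.507% to 4.67%) and 5.78%. Chromosomes 13, 14 and 21 held 0 members of 3, 57 and 32 regions. Chromosome Y held 2 members of 10 regions. The intervals count regions as independent, which neighbours are not.

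Some members also lay next to each other. Of the 123 members with another region within 50 kb, the nearest one was a member for 26 (21.1%). It was a member for 99 (4.23%) of the 2339 other regions with such a neighbour. These shares were not split by place, and 23.3% of all regions near a gap or on a scaffold were members. The authors list 14 genes as closest to 2 or more members, which together took 42 members of 111 regions, and at 10 of these genes every member was near a centromere gap. ACTR3BP2 had 6 members of 15 regions, all near the gap of chromosome 2. EMBP1 had 4 of 8, MTRNR2L1, a humanin-like gene, 4 of 7, and the olfactory receptor gene OR4C46 4 of 7. CWH43 had 3 of 12, LOC441666 3 of 24, ZNF733P 3 of 9 and MIR4436A 3 of 7. CHEK2P2 and LINC00854 had both of their 2 regions among the members. ALG10B, LINC00273, SPIN4 and TFEC had 2 of 4, 2 of 4, 2 of 4 and 2 of 6. Most of these genes thus had regions on both sides of the threshold.

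At OR4C46 the 4 members lay within one short span of chromosome 11 (51567160 to 51581212) but differed in reads. The most read of them had 222 HNF4A and 246 IgG reads at high glucose and 188 and 224 at low glucose. The least read had 19 and 24 at high glucose and 24 and 32 at low glucose. Their ratios ran from -0.51 to -0.29 at high glucose and from -0.44 to -0.06 at low glucose. At ACTR3BP2, the 15 regions ran from -0.50 to 1.0 at high glucose and from -0.50 to 0.19 at low glucose.

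The type of the closest gene was another property that the rule did not use. A type was found by name in the RefSeq table for 203 members and 5123 regions. Pseudogenes were closest to 29 members of 168 regions, or 13.4% of the members against 3.15% of all regions. Protein-coding genes were closest to 152 members (70.4%) against 82.5% of all regions. Long noncoding genes took 14 members (6.48%) against 7.13%, and microRNA genes 8 (3.7%) against 3.04%. The members had 179 distinct closest genes, and 9 had none listed. Of the 29 pseudogene members, 27 were near a centromere gap or on a scaffold, as were 97 of the 168 pseudogene regions. Of the 152 protein-coding members, 16 were. Closeness does not show regulation.

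None of the regions closest to genes of 4 liver and housekeeping lists was a member. Liver transcription factors had 0 members of 8 regions, and secreted and lipoprotein genes of the liver 0 of 16. Genes of glucose and fatty acid metabolism had 0 of 13, and histone, ribosome and translation genes 0 of 42. The lists are not complete. The lipoprotein gene LPA was on none of them and was closest to a member. That region had 5 HNF4A and 10 IgG reads at high glucose and 8 and 10 at low glucose, and both its intervals held 0. The histone, ribosome and translation list took only gene names that start with HIST, RPL, RPS or EIF. It therefore left out RNA5-8S5 and the mitochondrial ribosomal protein gene MRPS12, each closest to a member. At the background of 4.06%, lists of this size hold few members or none. The median ratios over IgG of these lists' regions were 1.0, 1.29, 1.98 and 0.38 at high glucose and 1.08, 1.42, 1.94 and 0.68 at low glucose, beside 0.79 and 0.94 over all regions.

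The AMPK and mTOR list, whose genes sense energy and nutrients, had 1 member of 27 regions (3.70%). It was closest to PRKAG1, which encodes the gamma 1 subunit of AMPK, on chromosome 12 (49411755 to 49413324). It had 54 HNF4A and 59 IgG reads at high glucose and 37 of each at low glucose, ratios of -0.27 (-0.83 to 0.28) and -0.03 (-0.72 to 0.67). Both intervals held 0, and the 2 antibodies were read almost alike.

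Neuron and synapse genes had 4 members of 28 regions (14.3%), with list medians of 1.25 and 0.97. NPAS4, an activity-dependent transcription factor of neurons, lay on chromosome 11 (66188825 to 66189783), where high glucose gave 135 HNF4A and 215 IgG reads, and low glucose 153 and 162. Its ratios were -0.82 (-1.14 to -0.50) and -0.11 (-0.44 to 0.22). IgG per kb was 199 there, far above the members' median, although the region was not near a gap. CACNA1H, a calcium channel gene, had 15 to 20 reads per library and intervals that held 0. SCRT1 is described above.

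Multicopy gene families, whose members resemble one another in sequence, had 15 members of 161 regions (9.32%), and 9 of the 15 were near a gap or on a scaffold. Besides ANKRD20A12P, OR4C46 and ZNF733P they included NBPF25P, POTEA, OR4D1, ZNF23, ZNF24, ZNF211 and ZNF551. The list of long noncoding and uncharacterised genes, taken only by LOC, LINC and -AS in their names, had 22 members of 500 regions (4.40%). MicroRNA genes had 8 members of 171 regions (4.68%), closest to MIR92B, MIR1253, MIR3190, MIR4436A, MIR589 and MIR3609. Both of the last shares were near the background of 4.06%.

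Mature RefSeq sequences were found for 5 of these 6 microRNA genes, 7 sequences in all with 7 distinct seeds. One is given for MIR4436A, the microRNA gene with the most members, and one for MIR92B, whose region lay in the chromosome 1 stretch. Bases 2 to 8, the seed that pairs with targets, are in capitals.
hsa-miR-4436a: gCAGGACAggcagaaguggau
hsa-miR-92b-3p: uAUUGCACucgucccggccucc

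ChIP reads say nothing about the level of a microRNA. The MIR92B region (chromosome 1, 155163990 to 155166563) had 127 HNF4A and 141 IgG reads at high glucose and 85 and 91 at low glucose. The most read MIR4436A member (chromosome 2, 89871971 to 89872241) had 36 and 39 at high glucose and 42 and 52 at low glucose. The first was lower at low glucose in both antibodies and the second higher in both.

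HNF4A between the glucose levels was a contrast that the rule did not use, though it rests on the same libraries. HNF4A was higher at high glucose in 157 members (72.7%), against 81.8% of all regions, and lower in 59 (27.3%), against 18.2%. Its median log2 ratio was 0.31 against 0.36. IgG was higher at high glucose in 174 members (80.6%), against 77.9% of all regions, and lower in 42 (19.4%), against 22.1%. Its median was 0.38 against 0.51. The interval lay above 0 in 39 members for HNF4A (18.1%, against 25.8% of all regions). For IgG it did so in 55 (25.5%, against 26.2%). It lay below 0 in 1 member for HNF4A (0.463%, against 0.826%) and in 3 for IgG (1.39%, against 1.93%). At least a 2-fold excess at high glucose was seen in 21 members for HNF4A (9.72%, against 6.78% of all regions). For IgG it was seen in 19 (8.8%, against 19.4%). At least a 2-fold deficit was seen in 5 for HNF4A (2.31%, against 0.713%) and in 1 for IgG (0.463%, against 3.38%). Most members thus had more scaled reads of each antibody at high glucose, as most of all regions did. Centred on the medians of all regions, both medians of the members lay below 0, at -0.04 for HNF4A and -0.13 for IgG.

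The other classes of regions give the frame for these values. Where HNF4A was not above IgG at high glucose alone, HNF4A had a median of 0.02 and IgG one of 0.90. Where it was not above IgG at low glucose alone, the medians were 0.56 and -0.19. In those classes the rule itself sets HNF4A and IgG apart between the glucose levels, and in the members it does not.

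Members differed by place in this contrast. For the 54 members near a gap or on a scaffold, HNF4A had a median of -0.04 and IgG one of 0.06. For the other 162 members it was 0.45 and 0.52. The same step was present outside the members. The 178 other regions near a gap or on a scaffold had medians of 0.05 and -0.17, against 0.37 and 0.53 in the 4932 other regions away from them. Of the 54 members, 25 were higher at high glucose for HNF4A and 31 for IgG, while of the 162 members 132 and 143 were. At the chromosome 7 stretch the 6 members had medians of -0.09 and -0.06, and at the chromosome 1 stretch the 13 had 0.37 and 0.41.

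**Figure D5:**
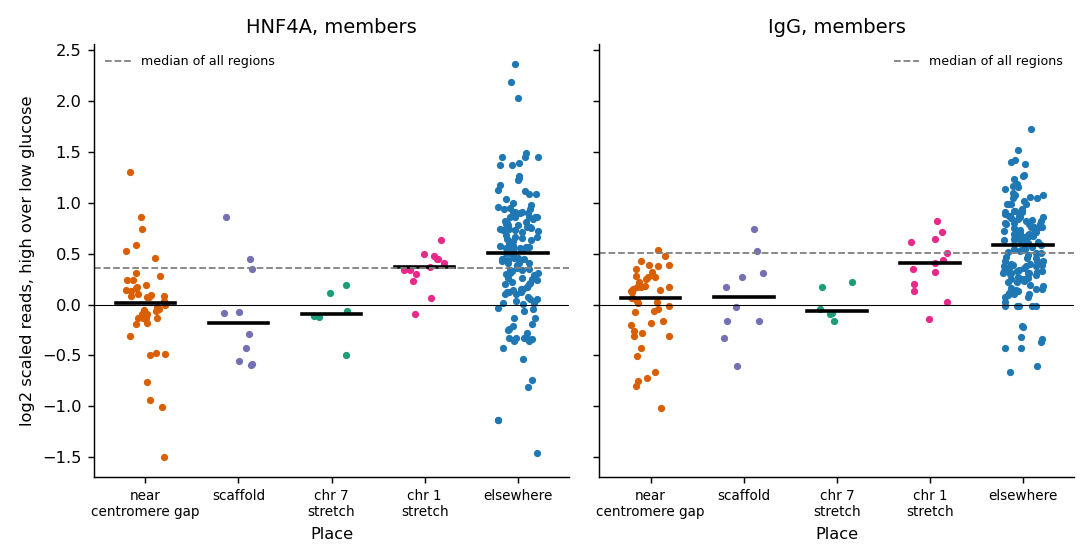
Log2 ratio of scaled reads at high over low glucose for HNF4A (left) and IgG (right), with 1 point per member, grouped by place. Black bars are medians of the members and the dashed line is the median of all 5326 regions, 0.36 for HNF4A and 0.51 for IgG. Members near a gap centre close to 0 in both panels, and members elsewhere lie mostly above it.

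In the authors' deposited table of HNF4A at high over low glucose, 8 members were higher at an unadjusted p of 0.05 (4.39% of all regions) and 1 was lower (0.225%). MMP24, a membrane-bound metalloproteinase gene, had 37 HNF4A reads at high and 12 at low glucose. Its log2 ratio was 1.49 (0.52 to 2.56), with p = 0.0129 in the authors' deposited table. Its IgG reads, 50 and 24, gave 1.04 (0.31 to 1.81). CHD5, a chromatin remodeller gene, had 17 and 3 HNF4A reads, 2.37 (0.58 to 4.78), and 30 and 9 IgG reads, 1.72 (0.61 to 2.98). In both regions IgG was also higher at high glucose.

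Of the others, NSDHL encodes an enzyme of cholesterol synthesis, ERGIC3 a protein of transport between the endoplasmic reticulum and the Golgi, and CSTF2 a factor of messenger RNA cleavage. With JHDM1D-AS1, MIR3190 and SBK1 these ran from 1.17 to 1.45 for HNF4A and from 0.72 to 1.52 for IgG. The lower one was a short EMBP1 region (chromosome 1, 121357870 to 121358065) with 7 HNF4A reads at high and 18 at low glucose, -1.50 (-3.00 to -0.17), where IgG had 12 and 20. The IgG interval held 0 at JHDM1D-AS1, NSDHL and EMBP1. Each region named from that comparison, MMP24 and CHD5 included, had the same sign in IgG. The rule kept scaled IgG at or above scaled HNF4A at both glucose levels, so that agreement is partly built in. None passed the FDR in the authors' deposited table, where the lowest FDR of a member was 0.914.

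Among members at or above their median level, HNF4A at high over low glucose was highest at MIR3190, CAMSAP1, IFT52 and EPB41L1. CAMSAP1, a gene for a protein of microtubule ends, had 49 HNF4A and 49 IgG reads at high glucose and 21 and 23 at low glucose, so both were lower at low glucose. IFT52, which encodes a part of intraflagellar transport, had 52 HNF4A reads at high and 23 at low glucose, 1.04 (0.31 to 1.82), and 53 and 44 IgG reads, 0.25 (-0.35 to 0.86). EPB41L1, a gene of the band 4.1 family of membrane skeleton proteins, stood at 0.95 (0.33 to 1.61) for HNF4A and 0.82 (0.27 to 1.40) for IgG. Only for IFT52 of these 4 did the IgG interval hold 0. Whether the 2 ratios differed was not tested.

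The lowest were MUC3A, a mucin gene, at -0.74 (-1.57 to 0.06), and a scaffold region with no gene listed, at -0.59 (-1.32 to 0.13). A second TFEC region and MIR4436A followed, at -0.50 and -0.36. All 4 intervals held 0. For IgG, the homeobox gene HDX was highest, with 59 reads at high and 26 at low glucose, 1.17 (0.48 to 1.89). KRT8 followed with 65 and 30, 1.1 (0.45 to 1.77), then CAMSAP1 and TROAP. The KRT8 region (chromosome 12, 53272908 to 53274228) had 45 and 28 HNF4A reads, so its ratio over IgG was -0.68 (-1.26 to -0.11) at high glucose and -0.13 (-0.92 to 0.67) at low glucose. Of the regions low for IgG that are reported here, LINC00293 stood at -0.20 (-0.39 to -0.0088). ACTR3BP2 and MIR4436A had intervals that held 0.

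Median length was lower in members than over all regions. It was 762 bp against 1030 bp, and with only the regions from the median level up it was 1250 bp for the 110 members left and 1461 bp for all 2663. Of the members, 85 (39.4%) were in the shortest 10%, from 101 to 606 bp. Members near a gap had a median of 444 bp, on scaffolds 298 bp and elsewhere 820 bp. The chromosome 1 and chromosome 7 stretches differed, with medians of 2070 and 2091 bp. The mean level over all 4 libraries was alike, at a median of 31.9 scaled reads in members and 31.3 over all regions. Both ends of the range held more members than the middle, with 38 in the lowest 10% by level and 43 in the highest 10%.

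The 5 members with the lowest mean ratio were short and thinly read. NAP1L3, a gene of the nucleosome assembly protein family, had 2 HNF4A and 14 IgG reads at high glucose and 5 and 14 at low glucose. M6PR, a mannose 6-phosphate receptor gene, had 2 and 15 at high glucose and 4 and 8 at low glucose. SLC32A1, the vesicular GABA transporter gene, had 7 and 16 at high glucose and 3 and 14 at low glucose. In these 3 regions of 293 to 338 bp all HNF4A counts were below all IgG counts. GP6, a platelet collagen receptor gene, had 9 and 15 at high glucose and 2 and 11 at low glucose. SCAMP5, a gene for a membrane protein of secretory vesicles, had 10 and 14 at high glucose and 2 and 13 at low glucose. Among members at or above the median level of all regions, the 10 lowest mean ratios also included FANCG, a Fanconi anaemia DNA repair gene, where HNF4A had 40 and IgG 51 reads at high glucose and 19 and 33 at low glucose. LOC101929116 had 29 and 54 at high glucose and 32 and 35 at low glucose.

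How many regions met the rule depended on the pairing of the libraries. When each HNF4A library was set against the IgG library of the other glucose level, 150 regions stood at or below IgG in both, and 100 of them were among the 216 members (46.3% of the members and 66.7% of the 150). With the 2 libraries of each antibody summed, 498 regions stood at or below IgG, and all 216 members were among them. That overlap follows almost by arithmetic, since the members were at or below IgG in each pair that was summed.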

How the data were processed

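HNF4A and IgG ChIP-seq libraries of HCCLM3 cells were compared at high and low glucose, with 1 library per group. The submitters' processing notes name Bowtie 1.1.2 with hg19, and beside it MACS, DiffBind, HOMER and bcl2fastq. The choice of regions, the settings and the total depth were not given in the sources used here. Deposited by the authors were 3 tables over the same 5326 regions with log2 levels, log2 folds, p-values and FDR, per the file headers. Without the log, 100% of the levels were whole multiples of 1 step per library, within 0.01. Dividing by that step gave reads and relative sizes of 1.10 (HNF4A) and 0.993 (IgG) at high glucose and 1 and 0.982 at low glucose. Over the 4 libraries, members held 2 to 18380 reads, and none was listed at 1 read, the lowest listed value, which may stand for 0. The sides of the third table were matched to glucose by their reads.

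Ratios and exact 95% Clopper-Pearson intervals were computed with Python 3.11.15, numpy 2.4.6, pandas 2.3.3 and scipy 1.17.1, and figures were drawn with matplotlib 3.10.9. Recovery of reads and the intervals were tested on simulated data. No test across conditions was made. Genes are those listed as closest by the authors, in the third table where tables differ. Starts are printed counted from 1. The positions of centromere gaps in hg19 were entered from general knowledge, and RefSeq types and sequences came from GRCh38 tables.

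The members, gene lists and rule for named genes were chosen with earlier results of these data known. The rule names the lowest ratios, the highest levels, intervals below 0 at both levels, genes with several members, extremes between glucose levels, regions beside the threshold, list members, members with an authors' p under 0.05 and the longest members. Not all are reported. The OR, SYT, SCN, GRI and MIR name starts were narrowed so as not to catch unrelated genes, which removed no member. Alternatives covered scaling, IgG pairing, summed libraries, thresholds, counting limits, filters on level and a pseudocount of 1 read.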

Additional observations from a re-analysis of the deposited data

How the results depend on the processing

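With no replicates, leaving out a replicate was not possible. No paired analysis was possible because each group had 1 library. The planned shares at gene starts and GC contents were not run, as no hg19 genome or annotation was at hand. The cause of the changes below was not tested beyond what each setting does by itself.

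The count of 216 became 1989 with ratios centred on the median of all regions, 498 with summed libraries, 11 with the upper counting limit at or below 0 in both tables and 110 when only regions from the median level up were taken. It was 181 without scaling, 150 with IgG exchanged, and 157 and 313 at thresholds of -0.1 and 0.1. The median of HNF4A at high over low glucose, 0.31, turned to -0.043 after centring, and was 0.17 for members by summed libraries and 0.45 without members near a gap or on scaffolds. That of IgG, 0.38, turned to -0.13, and was 0.59 and 0.52. The last setting was chosen after seeing the data, as were the gap distances. It gave a median length of 891.5 bp and 38.9 IgG reads per kb. With members from the median level up, the length was 1250 bp, the level 53.7 and the share on chromosome 7 17.3%. The share near a gap, 20.4%, ran from 16.2% within 500 kb to 28.7% within 5 Mb, and was 28.6% among members with the upper counting limit at or below 0 at either glucose level. The 21 alternatives not counted as a change include those without scaling, with IgG exchanged, at thresholds of -0.1 and 0.1 and within 500 kb. For the count of regions this looks only at its size and not at which regions were kept. With IgG exchanged, 100 of the 216 members were kept (46.3%), so membership did change.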
